A study of Rattus norvegicus with 18 samples.

Results

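Tibialis anterior muscle, made mostly of fast-twitch fibres, was compared between wild-type (WT) rats of 18 months and WT rats of 3 months. The comparison used 6 of the 18 libraries of the series, 3 of each age, chosen by the age and genotype in their labels. It covered the 13487 genes that passed a filter on low counts, out of 30560 entries in the count table. The series concerns senescent-like fibres in muscle of DMD rats, which model Duchenne dystrophy, and the 2 ages of WT rats form an arm of their own in its design. Libraries of WT rats of 9 months (n = 3) and of DMD rats of 9 months (n = 3) are used below for side-by-side values, and 6 libraries of p16-null DMD rats entered only 1 alternative fit. All groups are total RNA from frozen sections of the whole muscle, with no treatment, strain or sex in the labels used here and no description of the DMD or p16-null allele. Whether replicate libraries stem from different animals is not in the labels. The p-values given here reflect library-to-library spread only, part of which may be technical.

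A muscle fibre that loses its nerve switches on genes that innervated adult fibres keep low outside the junction. These include the acetylcholine receptor subunits, the receptor kinase Musk and the myogenic factor Myog. Regenerating fibres use an overlapping programme, with embryonic myosins and the fusion proteins Mymk and Mymx, while the cyclin-dependent kinase inhibitors Cdkn1a (p21) and Cdkn2b (p15) hold cells out of the cycle. Type I and type III collagens are the bulk fibrillar collagens of muscle connective tissue and tendon.

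Libraries held 12.3 M to 13.8 M counts at 3 months and 10.3 M to 12.4 M at 18 months. Levels are depth-normalised counts (CPM, scaled by TMM), and changes are log2(18 months / 3 months) with an SE from edgeR's quasi-likelihood test. A gene is called changed at an adjusted p under 0.05 (Benjamini-Hochberg over all tested genes). Acta1, skeletal actin, stood between 33187 and 46139 CPM at 3 months and between 17528 and 22398 CPM at 18 months (-0.91 ± 0.18, adjusted p = 0.003). Ckm, muscle creatine kinase, stood between 16980 and 25729 CPM and then between 8740 and 12376 CPM (-0.95 ± 0.19, adjusted p = 0.0029). Of 6 tested fibre markers 3 were lower, 0 higher and 3 not called, beside 10.1% lower over all genes. Y-linked Kdm5d was detected in every library, at 12.2 to 17.5 CPM. The 50 most abundant genes took 44.9 to 47.9% of the counts at 3 months and 40.6 to 41.9% at 18 months. Entries without a gene symbol took 3.64 to 5.86% and 8.27 to 10.3%. The median change of all genes was 0.00 under TMM, 0.24 with library totals alone and 0.29 on deposited TPM values (transcript abundance scaled by length and depth).

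In all, 2622 of 13487 genes changed (19.4%), 1256 higher at 18 months (9.31%) and 1366 lower (10.1%). At least 2-fold, 502 were higher (3.72%) and 300 lower (2.22%). With library totals the split was 2609 higher to 652 lower, and with log2(TPM + 1) in limma it was 3031 to 429. All 6 values of a gene separated by age in 4870 genes (36.1%). Between-age correlations of log2 CPM were 0.930 to 0.941, against 0.965 to 0.975 within an age.

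The 4 markers of the comparison were low at 3 months and high at 18 months in every library. Ankrd1, a nuclear and sarcomeric ankyrin-repeat protein induced by stretch and denervation, stood at 7.63, 4.42 and 9.30 CPM at 3 months and at 779, 641 and 671 CPM at 18 months. Its log2 change was 6.61 ± 0.23 (SE, n = 3 each; adjusted p = 1.7e-10). Myog rose from 7.47, 6.07 and 11.5 CPM to 172, 193 and 216 CPM, a log2 change of 4.53 ± 0.21 (adjusted p = 3.7e-09). No 3-month library came near an 18-month one for either gene. Ncam1, the neural cell adhesion molecule carried by denervated and regenerating fibres, went from 7.40, 8.15 and 7.72 CPM to 211, 175 and 180 CPM (4.60 ± 0.15, adjusted p = 1.6e-10). Cdkn1a went from 3.18, 5.38 and 8.80 CPM to 199, 115 and 169 CPM (4.80 ± 0.29, adjusted p = 7.9e-08). Dmd, which encodes dystrophin and is intact in both groups by label, rose from 94.9, 95.5 and 80.3 CPM to 185, 161 and 132 CPM (0.82 ± 0.14, adjusted p = 0.00094).

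**Figure D1:**
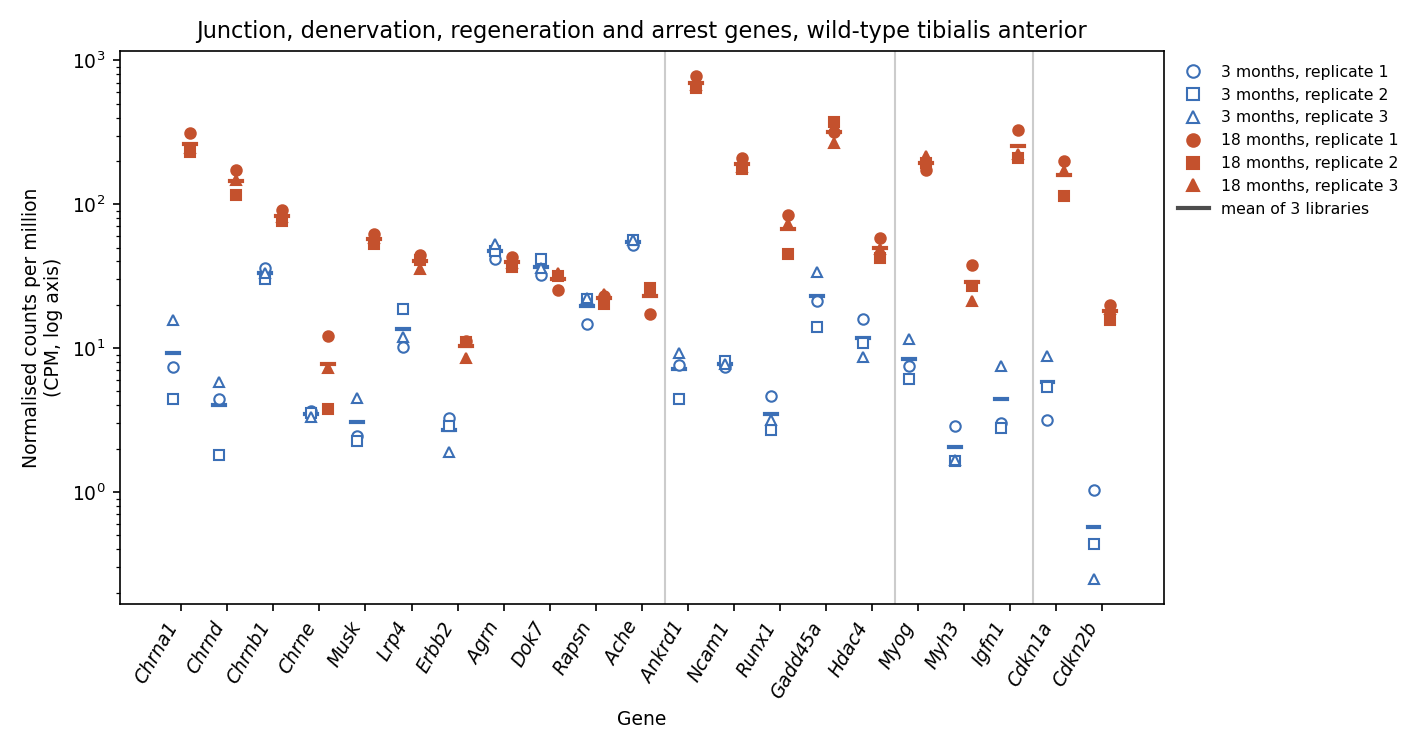
CPM on a log axis for 21 junction, denervation, regeneration and arrest genes, with 1 point per library (open, 3 months; filled, 18 months) and a bar at the mean of 3 libraries. The acetylcholine receptor genes Chrna1 and Chrnd lie far apart by age, while Agrn, Dok7 and Rapsn overlap and Ache is lower at 18 months.

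At the neuromuscular junction, the receptor subunit genes Chrna1, Chrnd and Chrnb1 and the organisers Musk and Lrp4 rose, and the synaptic esterase gene Ache fell. Of 22 tested members of the junction list, 10 were higher and 3 lower (1 lower with library totals), with a median change of 0.33 against 0.00 over all genes. Chrna1, the agonist-binding alpha subunit, went from 7.40, 4.42 and 15.8 CPM to 314, 230 and 246 CPM (4.83 ± 0.32, adjusted p = 1.8e-07). Chrnd, the delta subunit, went from 4.45, 1.82 and 5.81 CPM to 172, 116 and 147 CPM (5.16 ± 0.28). The beta subunit Chrnb1 was already present at 3 months, at 35.9, 30.2 and 33.1 CPM, and reached 90.7, 76.3 and 81.5 CPM (1.32 ± 0.13, adjusted p = 9e-06). Replicate 3 held the highest 3-month level of Chrna1, and without it the change of Chrna1 was 5.47.

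The fitted change of the adult epsilon subunit Chrne was small beside those of alpha and delta. It stood at 3.66, 3.56 and 3.32 CPM at 3 months and at 12.2, 3.75 and 7.27 CPM at 18 months (1.14 ± 0.36, adjusted p = 0.041). The call ended when any library other than replicate 2 of 18 months was left out, with adjusted p = 0.30 without replicate 1 of 18 months. Per transcript length, the subunits at 3 months stood at 20.6 TPM for Chrnb1, 6.18 TPM for Chrna1, 3.07 TPM for Chrnd and 2.93 TPM for Chrne. At 18 months the order of mean levels was Chrna1 (236 TPM), Chrnd (144 TPM), Chrnb1 (65.5 TPM) and Chrne (8.26 TPM). The embryonic gamma subunit was not analysed here.

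Musk, the agrin-responsive kinase that clusters receptors, rose from 2.46, 2.25 and 4.48 CPM to 61.7, 52.8 and 58.0 CPM (4.22 ± 0.22, adjusted p = 1.6e-08). Its co-receptor Lrp4 rose from 10.2, 18.6 and 11.96 CPM to 44.4, 40.7 and 35.2 CPM (1.56 ± 0.20). The neuregulin receptors Erbb2 (1.93 ± 0.28) and Erbb3 (1.51 ± 0.31) rose too. The organisers downstream and upstream of Musk did not pass the test: Agrn changed by -0.26 ± 0.13, Dok7 by -0.29 ± 0.15 and Rapsn by 0.18 ± 0.18. Ache, acetylcholinesterase, fell from 51.8, 56.7 and 56.1 CPM to 17.2, 26.0 and 25.8 CPM (-1.26 ± 0.16, adjusted p = 8e-05). Utrn, the dystrophin relative kept at the junction, rose by 0.51 ± 0.13, and Prkar1a by 0.45 ± 0.13, while Ptpn11 (-0.53 ± 0.12) was lower. Those last 3 calls do not survive every setting: Utrn and Prkar1a lost theirs when some single libraries were left out, and Ptpn11 lost its call on TPM (adjusted p = 0.44).

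Myogenic factors bind E-boxes, the 6-base motif CANNTG, and the receptor, Musk and Myog promoters are textbook examples. The 150 bases before the start of 4 genes that rose together are printed from the RefSeq promoter table (build GRCr8), 5′ to 3′ on the strand of the gene, with each CANNTG in capitals. They were matched by gene symbol, and the deposited counts use another build, so no coordinate is carried between them. Chrna1 lies on the minus strand at chr3:78877354-78877503, Chrnd on the plus strand at chr9:95310166-95310315, Musk on the plus strand at chr5:77853586-77853735 and Myog on the plus strand at chr13:48297326-48297475.
Chrna1: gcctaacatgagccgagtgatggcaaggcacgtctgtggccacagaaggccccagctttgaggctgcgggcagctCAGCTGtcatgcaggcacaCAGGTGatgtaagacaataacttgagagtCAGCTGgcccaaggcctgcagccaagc
Chrnd: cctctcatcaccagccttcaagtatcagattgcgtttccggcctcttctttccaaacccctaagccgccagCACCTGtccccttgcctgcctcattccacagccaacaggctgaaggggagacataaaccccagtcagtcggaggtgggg
Musk: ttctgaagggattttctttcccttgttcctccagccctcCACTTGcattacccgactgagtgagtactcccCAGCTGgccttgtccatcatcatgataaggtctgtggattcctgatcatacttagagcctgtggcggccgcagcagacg
Myog: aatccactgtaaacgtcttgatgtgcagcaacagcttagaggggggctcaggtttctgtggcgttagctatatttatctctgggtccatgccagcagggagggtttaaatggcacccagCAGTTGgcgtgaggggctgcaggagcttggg

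The Chrna1 window held 3 E-boxes, beginning 75, 56 and 27 bases before the start, and Musk held 2, at 111 and 79 bases. Chrnd held 1 at 79 bases and Myog 1 at 31 bases. The motif is its own reverse complement in its fixed letters, so both strands are covered. It is common: 46.6% of the 33469 promoters of the table hold a CANNTG in the same window, and 7.63% hold CAGCTG, the form found in Chrna1 and Musk. A match is a description of the letters and was not tied to a measured binding event.

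The wider denervation response was mostly higher at 18 months. Of its 33 tested members, 20 were higher and 3 lower, with a median of 1.10. Runx1, a transcription factor of denervated fibres, rose from 4.61, 2.69 and 3.16 CPM to 83.5, 45.4 and 72.5 CPM (4.26 ± 0.25). Gadd45a, a chromatin-linked stress protein of the atrophy response, rose from 21.2, 13.96 and 33.9 CPM to 319, 370 and 268 CPM (3.79 ± 0.25).

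Hdac4, the deacetylase that relays loss of nerve activity to Myog, rose from 15.98, 10.8 and 8.72 CPM to 58.0, 42.6 and 48.9 CPM (2.07 ± 0.20, adjusted p = 7.6e-06). Its relative Hdac9 moved the other way, from 13.8, 17.9 and 10.5 CPM to 8.80, 6.88 and 9.26 CPM (-0.76 ± 0.22, adjusted p = 0.029). That fall was not called on TPM (adjusted p = 0.32) or without any 1 of 4 libraries. Ampd3, the AMP deaminase of atrophying fibres (3.77 ± 0.23), the small GTPase Rrad (3.90 ± 0.28) and the SERCA inhibitor Sln (6.11 ± 0.28) rose strongly. Gdf5, a BMP-type ligand that restrains denervation atrophy, was at 0.557, 0.00 and 0.00 CPM at 3 months and at 7.43, 11.3 and 14.8 CPM at 18 months. Its fitted change of 5.78 ± 0.62 was 10.07 without replicate 1 of 3 months, the only 3-month library with reads. Hspb7 (1.51 ± 0.15), Myo5a (1.10 ± 0.17), Xirp1 (0.79 ± 0.21) and Cd44 (0.53 ± 0.15) rose less, and the last pair lost their calls without some single libraries.

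Mlf1 and Ky fell, with no overlap between the ages. Mlf1 went from 425, 409 and 451 CPM to 78.1, 124 and 81.9 CPM (-2.18 ± 0.17, adjusted p = 7.3e-07). Ky, a sarcomeric protease-like protein needed for junction maturation, went from 352, 435 and 333 CPM to 156, 133 and 171 CPM (-1.29 ± 0.14). Among the 10 members not called, Fbxo40 changed by -0.18 ± 0.12 and Peg3 by 0.38 ± 0.16.

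Genes for membrane excitability split into those that rose and a larger set that fell. Of 31 tested channel and transporter genes, 7 were higher and 14 lower (9 lower on log2(TPM + 1)), with a median of -0.41. The apamin-sensitive potassium channel Kcnn3 rose from 10.7, 8.07 and 13.1 CPM to 59.1, 47.1 and 60.1 CPM (2.38 ± 0.18, adjusted p = 6e-07). The channel gene Kcnq5 rose by 2.02 ± 0.18. The adult pump subunit Atp1b2 fell from 309, 292 and 277 CPM to 101, 117 and 90.3 CPM (-1.51 ± 0.13). Kcna7 (-1.32 ± 0.14) and the calcium-channel subunit Cacng1 (-1.03 ± 0.12) fell as well.

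Genes of embryonic and regenerating fibres were mostly higher, with 20 of 26 tested members higher, 1 lower and a median of 1.37. Myh3, embryonic myosin, went from 2.86, 1.65 and 1.66 CPM to 37.7, 27.2 and 21.3 CPM (3.79 ± 0.27, adjusted p = 4.2e-07). Myh8, perinatal myosin, went from 17.3, 13.2 and 15.5 CPM to 48.0, 54.9 and 38.6 CPM (1.62 ± 0.16). Both stayed far below the adult fast myosin Myh4, which held 26327 to 33938 CPM at 3 months and 22988 to 23925 CPM at 18 months. Reads of the clustered myosin genes can be shared among near-identical copies, so these levels are uncertain.

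The fusion genes were close to 0 at 3 months. Mymk, myomaker, was at 1.67, 0.173 and 0.249 CPM and reached 35.9, 32.4 and 26.2 CPM (5.44 ± 0.41), or 7.14 without replicate 1 of 3 months. Mymx, myomixer, was at 0.318, 0.0867 and 2.16 CPM and reached 90.6, 126 and 83.6 CPM (6.85 ± 0.43), or 8.85 without replicate 3 of 3 months. Igfn1, a fusion-linked immunoglobulin-domain protein, rose from 3.02, 2.78 and 7.47 CPM to 325, 209 and 223 CPM (5.83 ± 0.31), or 6.44 without replicate 3 of 3 months.

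All 4 myogenic factors were higher. Beside Myog these were Myf5 (2.72 ± 0.34), Myod1 (1.37 ± 0.20) and Myf6 (1.37 ± 0.13). Myod1 rose from 31.6, 30.2 and 28.5 CPM to 103, 78.2 and 51.2 CPM. The imprinted growth genes Igf2 (1.25 ± 0.15) and H19 (1.74 ± 0.23) rose, while imprinted Mest fell from 16.1, 10.4 and 14.3 CPM to 5.08, 4.02 and 5.58 CPM (-1.47 ± 0.24). The fetal and cardiac-type sarcomere genes Actc1 (1.302 ± 0.14), Myl4 (1.21 ± 0.18) and Tnnt2 (1.62 ± 0.36), the adaptor Bex1 (3.64 ± 0.32) and the LIM protein Csrp3 (2.22 ± 0.20) rose too.

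Satellite cell genes other than the myogenic factors showed few calls. Of 22 tested members 3 were higher and none lower (7 higher with library totals or on log2(TPM + 1)), beside 9.31% and 10.1% over all genes. Among the 3 higher members 2 were Myf5 and Myod1. Pax7, the transcription factor that marks satellite cells, stood at 2.94, 1.82 and 1.49 CPM at 3 months and at 3.71, 0.625 and 1.22 CPM at 18 months (-0.17 ± 0.58, adjusted p = 0.88). The 2 ages overlapped for Pax7, and at these low levels its SE was wide. Cdh15 (-0.50 ± 0.22) and Megf10 (-0.37 ± 0.33) did not pass. Cdh15 passed, as lower, without replicate 1 of 3 months (adjusted p = 0.029). In whole muscle, fewer cells of a type and less RNA per cell cannot be told apart.

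Among cell cycle arrest genes the 2 large changes were a pair of inhibitors. Cdkn2b rose from 1.03, 0.434 and 0.249 CPM to 19.9, 15.7 and 18.8 CPM (4.95 ± 0.34, adjusted p = 2.7e-07), or by 5.70 without replicate 1 of 3 months. Cdkn2a, which encodes p16, had 0 counts in all 3 libraries of 3 months and 3, 3 and 0 counts at 18 months, below the filter, so no change could be tested at this depth. Of 22 tested members 4 were higher and 2 lower, beside 9.31% and 10.1% over all genes. The retinoblastoma gene Rb1 (0.72 ± 0.15) and Btg1 (0.63 ± 0.16) rose moderately, and Btg1 was not called without replicate 2 of 18 months (adjusted p = 0.073).

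Both lower members are antiproliferative genes of the BTG/TOB family. Tob1 fell from 226, 315 and 243 CPM to 129, 143 and 140 CPM (-0.93 ± 0.14). Btg2 stood at 59.3, 201 and 81.7 CPM and then at 57.1, 63.7 and 49.6 CPM, so the ages overlapped. Its change of -1.01 ± 0.32 (adjusted p = 0.038) was -0.32 without replicate 2 of 3 months (adjusted p = 0.25), and DESeq2 did not call it (adjusted p = 0.19). Cdkn1b (-0.17 ± 0.15), Cdkn1c (0.33 ± 0.24) and Ccnd1 (-0.13 ± 0.20) did not pass. On log2(TPM + 1) Cdkn1c was called higher (adjusted p = 0.035).

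Proliferation genes were sparse and low: of 24 tested, Top2a was higher (1.33 ± 0.43, adjusted p = 0.042) and H2az1 lower (-0.65 ± 0.12). Top2a lost its call without any 1 of 5 libraries, and Mki67 changed by 1.05 ± 0.41 (adjusted p = 0.087).

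**Figure D2:**
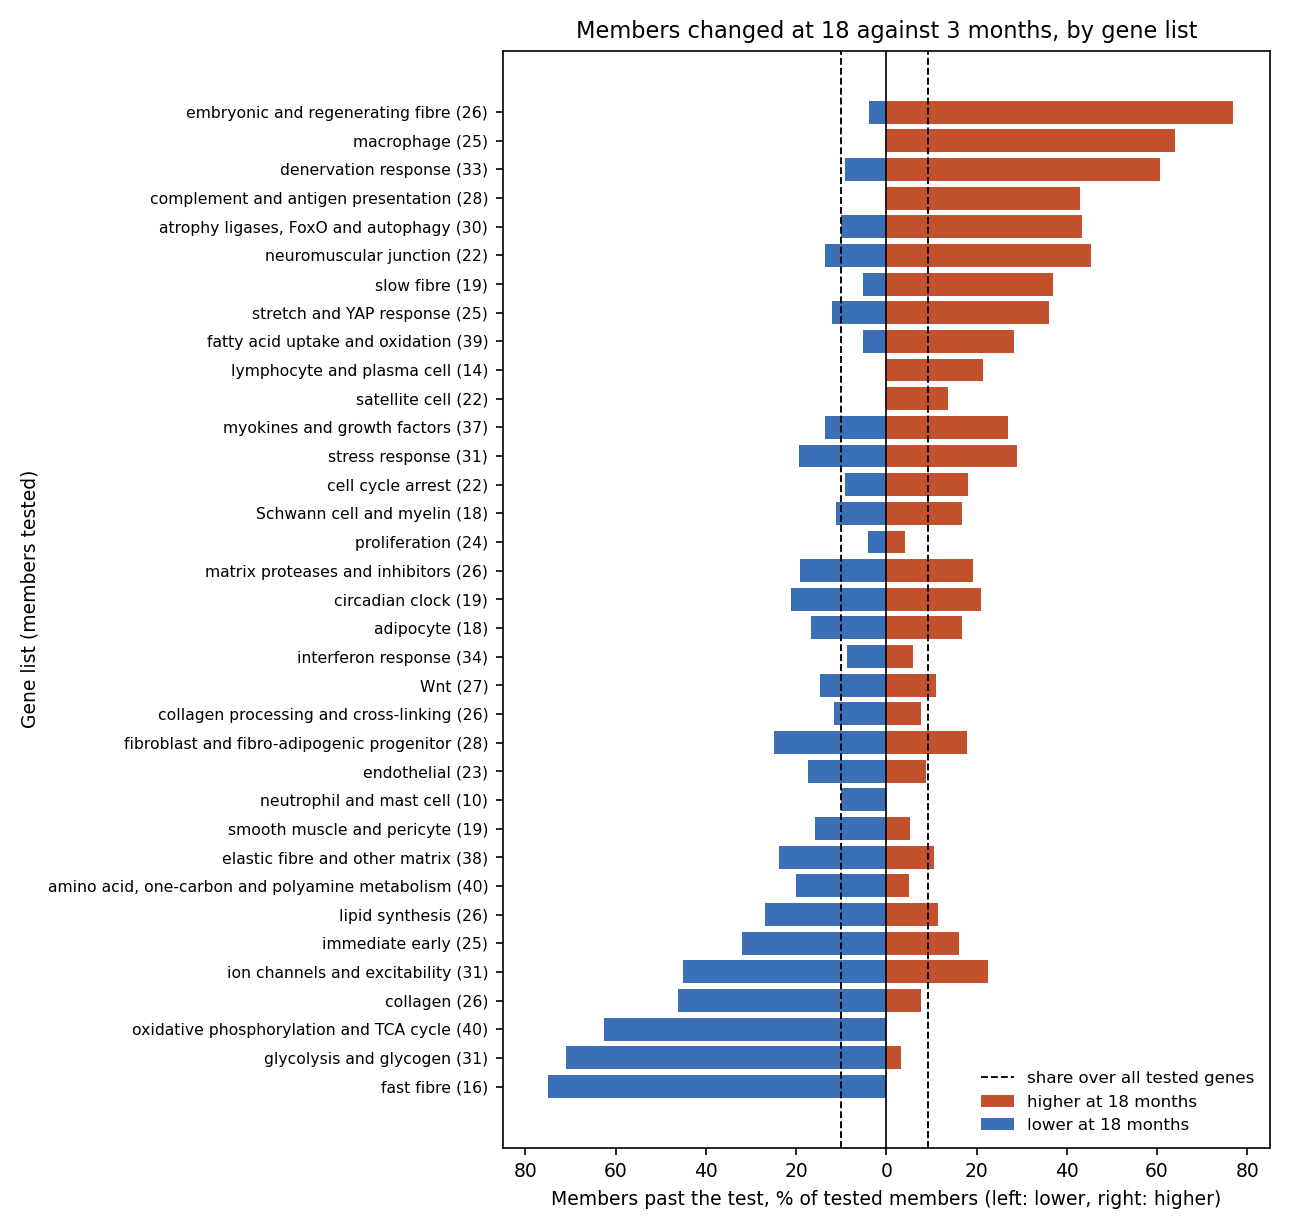
Share of the tested members that passed the test higher (right) or lower (left) at 18 months, for gene lists with at least 10 tested members, with dashed lines at the shares over all tested genes, 9.31% higher and 10.1% lower. The embryonic and regenerating fibre list has the longest bar to the right and the fast fibre list the longest to the left.

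Of 30 tested atrophy, FoxO and autophagy genes 13 were higher, 3 lower and 14 not called, with a median of 0.41 (20 up on log2(TPM + 1)). The muscle ubiquitin ligases rose moderately. Fbxo32, atrogin-1, went from 77.9, 75.5 and 59.2 CPM to 159, 188 and 146 CPM (1.22 ± 0.14, adjusted p = 4.2e-05), and Trim63, MuRF1, from 194, 166 and 199 CPM to 333, 356 and 335 CPM (0.87 ± 0.12). Fbxo30, the ligase called MUSA1 that acts in denervation, rose by 1.04 ± 0.16. The autophagy receptor Sqstm1 (p62) rose from 368, 384 and 388 CPM to 665, 799 and 833 CPM (1.01 ± 0.13). Ctsl, a lysosomal protease, rose by 1.90 ± 0.17. The metal-binding Mt2A rose from 2.94, 3.73 and 4.48 CPM to 34.5, 56.7 and 34.4 CPM (3.49 ± 0.24). Its near copy Mt1 can share reads with it, so the split between them is uncertain.

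Chaperones of the stretched or damaged sarcomere rose in the stretch list, where 9 of 25 tested members were higher and 3 lower. Hspb8 went from 345, 321 and 308 CPM to 960, 825 and 1095 CPM (1.56 ± 0.14, adjusted p = 3e-06). Cryab, alpha-B crystallin, rose by 1.23 ± 0.16 and filamin C, Flnc, by 0.96 ± 0.14. In the stress list, with 9 of 31 higher and 6 lower, the antioxidant genes Nqo1 (1.41 ± 0.15), Hmox1 (1.72 ± 0.24) and Cat (0.98 ± 0.13) rose and the lipoprotein receptor Vldlr fell by -0.98 ± 0.12.

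Energy metabolism shifted by list. Of 31 tested genes of glycolysis and glycogen 22 were lower and 1 higher, with a median of -0.69. Aldoa, the muscle aldolase, fell from 11635, 13057 and 14151 CPM to 4436, 6405 and 6267 CPM (-1.18 ± 0.17). Gpd1, glycerol-3-phosphate dehydrogenase, fell from 1128, 1195 and 1124 CPM to 368, 494 and 446 CPM (-1.40 ± 0.14, adjusted p = 8e-06). Phkg1 (-1.18 ± 0.12), Pfkfb3 (-1.51 ± 0.16) and Gpi (-0.93 ± 0.13) fell in the same way. The single gene that rose was Hk2, hexokinase 2, from 50.7, 58.2 and 46.7 CPM to 85.3, 91.6 and 96.8 CPM (0.82 ± 0.13, adjusted p = 0.0005). It was named because it is the single exception. With library totals the count was 17 lower and 4 higher.

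Of 40 tested genes for the respiratory chain and the TCA cycle, 25 were lower and none higher, with a median of -0.53. Cycs, cytochrome c, fell from 910, 1021 and 1090 CPM to 415, 486 and 452 CPM (-1.16 ± 0.13, adjusted p = 2.5e-05). Sdhc (-0.86 ± 0.12), Ndufv2 (-0.80 ± 0.13), Ndufa4 (-0.73 ± 0.13) and Ndufs3 (-0.70 ± 0.12) fell by less. This list leans on the scaling and on single libraries: 16 members were lower with library totals, 12 lower and 3 higher on log2(TPM + 1), and 16 lower without replicate 1 of 18 months.

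Of 39 tested genes of fatty acid handling 11 were higher, 2 lower and 26 not called, with a median of 0.22. Plin2, a lipid-droplet coat protein, rose from 50.4, 41.1 and 39.4 CPM to 138, 124 and 159 CPM (1.68 ± 0.14, adjusted p = 2.4e-06). Angptl4, a fasting-induced lipase inhibitor, rose from 2.31, 0.607 and 0.664 CPM to 12.8, 6.16 and 10.1 CPM (3.00 ± 0.45), or by 3.91 without replicate 1 of 3 months. Pdk4, which closes the pyruvate dehydrogenase gate, rose by 1.11 ± 0.23 (adjusted p = 0.068 in a robust fit), Cpt1a by 0.84 ± 0.18 and Acacb by 0.89 ± 0.13. Acsl6 was an exception, falling from 165, 167 and 146 CPM to 62.2, 54.7 and 63.7 CPM (-1.40 ± 0.12). Between 7 members, without replicate 1 or 2 of 3 months or replicate 3 of 18 months, and 26 members, on log2(TPM + 1), were higher under the alternatives, except for the fit of all 18 libraries, which called 4.

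**Figure D3:**
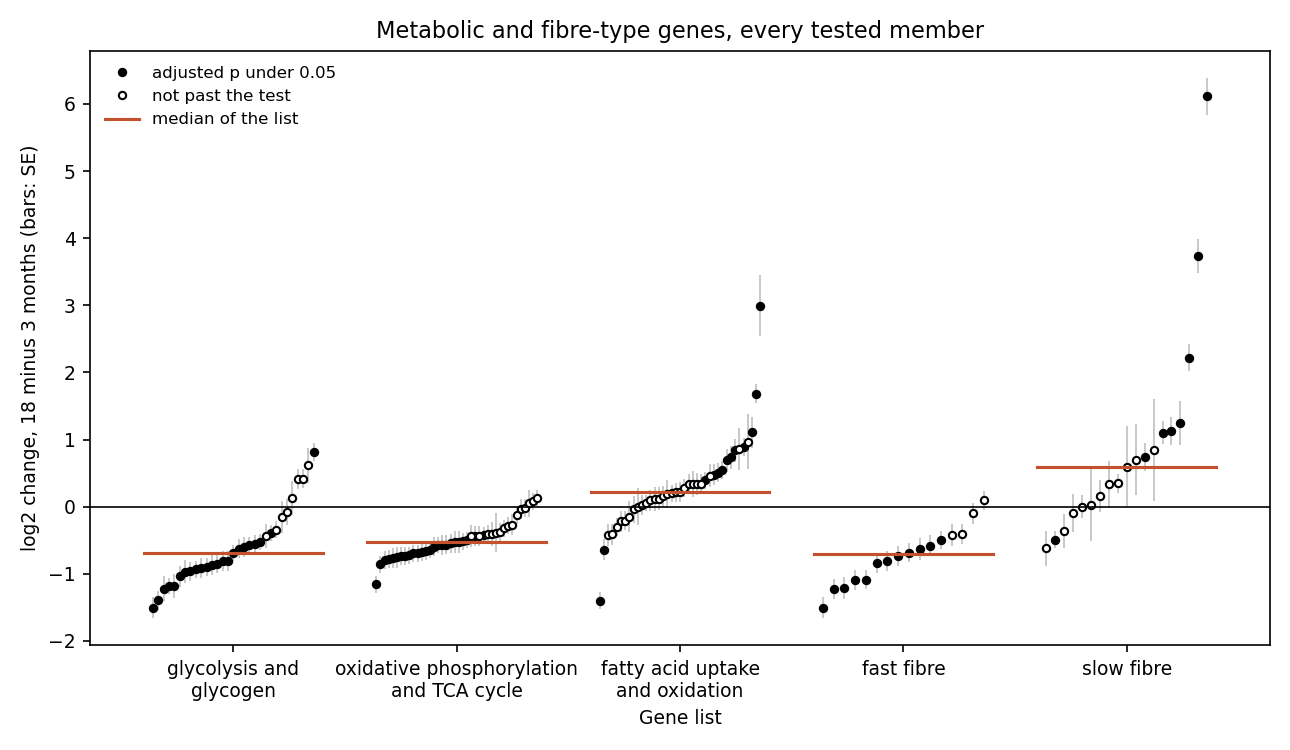
Log2 change (18 minus 3 months, bars SE) of every tested member of 5 lists, sorted within each list, with filled points past the test and a line at the list median. Medians run from -0.71 for fast fibre genes to 0.60 for slow fibre genes, and Sln is the highest point.

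Most tested fast fibre genes fell, while most tested slow fibre genes were not called. Of 16 tested fast fibre genes 12 were lower and none higher, with a median of -0.71. Mylk2, the myosin light chain kinase of fast fibres, fell from 814, 844 and 797 CPM to 240, 373 and 253 CPM (-1.50 ± 0.16, adjusted p = 1.8e-05). Actn3 (-1.22 ± 0.16), Casq1 (-1.23 ± 0.15), Mybpc2 (-1.09 ± 0.14) and Myoz1 (-1.10 ± 0.15) fell to a similar degree. The fast myosins, named here for contrast after values were seen, did not pass. Myh4 changed by -0.42 ± 0.17 (adjusted p = 0.098) and Myh2 by 0.09 ± 0.14 (adjusted p = 0.70). Myh4 passed, as lower, without replicate 3 of 3 months (-0.53, adjusted p = 0.0099). A fit of all 18 libraries called 6 of the 16 lower, and leaving out the 50 most abundant genes, which removes members of the list, left 4.

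Slow fibre genes counted 7 higher and 1 lower of 19, with a median of 0.60 that was -0.25 without replicate 3 of 18 months. Sln and Myom3 led, and Myom3, a sarcomeric M-band protein, rose from 2.94, 3.90 and 3.32 CPM to 62.5, 32.1 and 40.8 CPM (3.73 ± 0.25, adjusted p = 1.7e-07). Casq2 rose by 1.10 ± 0.17 and slow troponin I, Tnni1, by 1.24 ± 0.33, with overlap between the ages for Tnni1. The slow contractile genes Myl2 (0.02 ± 0.54), Myl3 (-0.37 ± 0.25), Tnnt1 (0.60 ± 0.61), Tnnc1 (0.70 ± 0.53) and Tpm3 (0.16 ± 0.24) did not pass. Myh7, the slow myosin, was uneven at 18 months, with 191, 7.68 and 589 CPM against 131, 155 and 152 CPM at 3 months (0.84 ± 0.76, adjusted p = 0.49). Replicate 2 of 18 months held almost no Myh7, and without it Myh7 was higher by 1.42 (adjusted p = 0.0091). The same library was also the lowest of both ages for Myl2 (17.1 CPM), Tnnt1 (5.45 CPM) and Tnnc1 (5.36 CPM). Myh7 is named for its spread, and Tnni1, Myl2, Myl3, Tnnt1, Tnnc1 and Tpm3 for contrast, after values were seen.

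The type I and type III collagen genes were lower at 18 months. Of 26 tested collagen genes 12 were lower and 2 higher, with a median of -0.47 (6 lower on log2(TPM + 1)). Col1a1 stood at 2103, 1497 and 611 CPM at 3 months and at 216, 162 and 197 CPM at 18 months (-2.87 ± 0.32, adjusted p = 2.5e-05). Col1a2 fell from 1721, 1226 and 532 CPM to 307, 247 and 267 CPM (-2.08 ± 0.29). Col3a1 fell from 2095, 1730 and 1288 CPM to 595, 483 and 615 CPM (-1.59 ± 0.17). Replicate 3 of 3 months was the lowest of its group for these 3 genes, yet it stood above every 18-month library. Col5a3 (-1.50 ± 0.19) and Col6a6 (-1.36 ± 0.15) fell as well.

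The 2 collagens that rose are minor ones. Col19a1, a muscle collagen of the basement membrane zone, went from 5.09, 4.60 and 2.66 CPM to 68.1, 39.7 and 35.5 CPM (3.53 ± 0.27, adjusted p = 9e-07). Col8a1 rose by 1.43 ± 0.22. The type IV genes Col4a1 (-0.04 ± 0.12) and Col4a2 (0.04 ± 0.13) overlapped between the ages, while Col4a3 (-0.69, adjusted p = 0.029) and the basement membrane zone collagen Col15a1 (-0.86, adjusted p = 0.0015) were lower. The call of Col4a3 was lost without replicate 1 or 2 of 3 months (-0.56 and -0.64) and without any single library of 18 months (-0.77, -0.66 and -0.62). These 4 are named for contrast, after their values were seen. Among 26 tested genes of collagen processing 3 were lower and 2 higher, beside 10.1% and 9.31% over all genes. Sparc, the collagen-binding protein osteonectin, fell from 2007, 1473 and 1319 CPM to 653, 588 and 644 CPM (-1.35 ± 0.16), the cross-linking oxidase Loxl2 by -1.21 ± 0.21 and Pcolce by -0.93 ± 0.19. Its relative Loxl1 (0.96 ± 0.16) and the lysyl hydroxylase Plod2 (0.97 ± 0.16) rose.

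Several of the largest falls were in matrix genes of tendon and cartilage type. A list of 16 such genes was drawn up after values were seen and is descriptive only; 15 were tested, 10 lower and 3 higher. Tnmd, tenomodulin, stood at 31.7, 27.8 and 5.40 CPM and then at 1.53, 1.88 and 0.229 CPM (-4.18 ± 0.61, adjusted p = 0.00027). Chad, chondroadherin, stood at 58.0, 25.8 and 3.57 CPM and then at 1.53, 1.70 and 0.382 CPM (-4.61 ± 0.77, adjusted p = 0.00072), or -3.62 without replicate 1 of 3 months. Fmod, the collagen-binding proteoglycan fibromodulin, stood at 328, 224 and 50.7 CPM and then at 25.3, 36.1 and 18.9 CPM (-2.91 ± 0.46).

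The 3-month libraries were spread widely for these genes, with replicate 1 highest and replicate 3 lowest in all of Tnmd, Chad, Fmod, Cilp2, Kera and Col11a2. The summed level of the list ran from 230 to 971 CPM at 3 months and from 216 to 371 CPM at 18 months, so the sums overlapped. In a robust fit 3 members stayed lower, and Tnmd, Chad, Fmod, Cilp2 and Kera were not called, with adjusted p of 0.062 to 0.098. How much tendon or fascia each section held was not recorded in the labels used here, and its part in the result was not tested. Not all matrix genes of this kind fell: Cilp, a cartilage intermediate-layer protein, rose from 42.9, 23.2 and 16.4 CPM to 96.3, 82.3 and 64.9 CPM (1.56 ± 0.26), and Prg4, lubricin, rose by 0.81 ± 0.20. Robust fitting did not call Cilp (adjusted p = 0.054), and Prg4 was not called without replicate 2 of 18 months (adjusted p = 0.062). The remaining higher member was Scx (0.997 ± 0.31, adjusted p = 0.038), with overlap between the ages. Thbs4 (-0.41 ± 0.31, adjusted p = 0.39) and Mkx (-0.26 ± 0.43, adjusted p = 0.72) were not called.

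**Figure D4:**
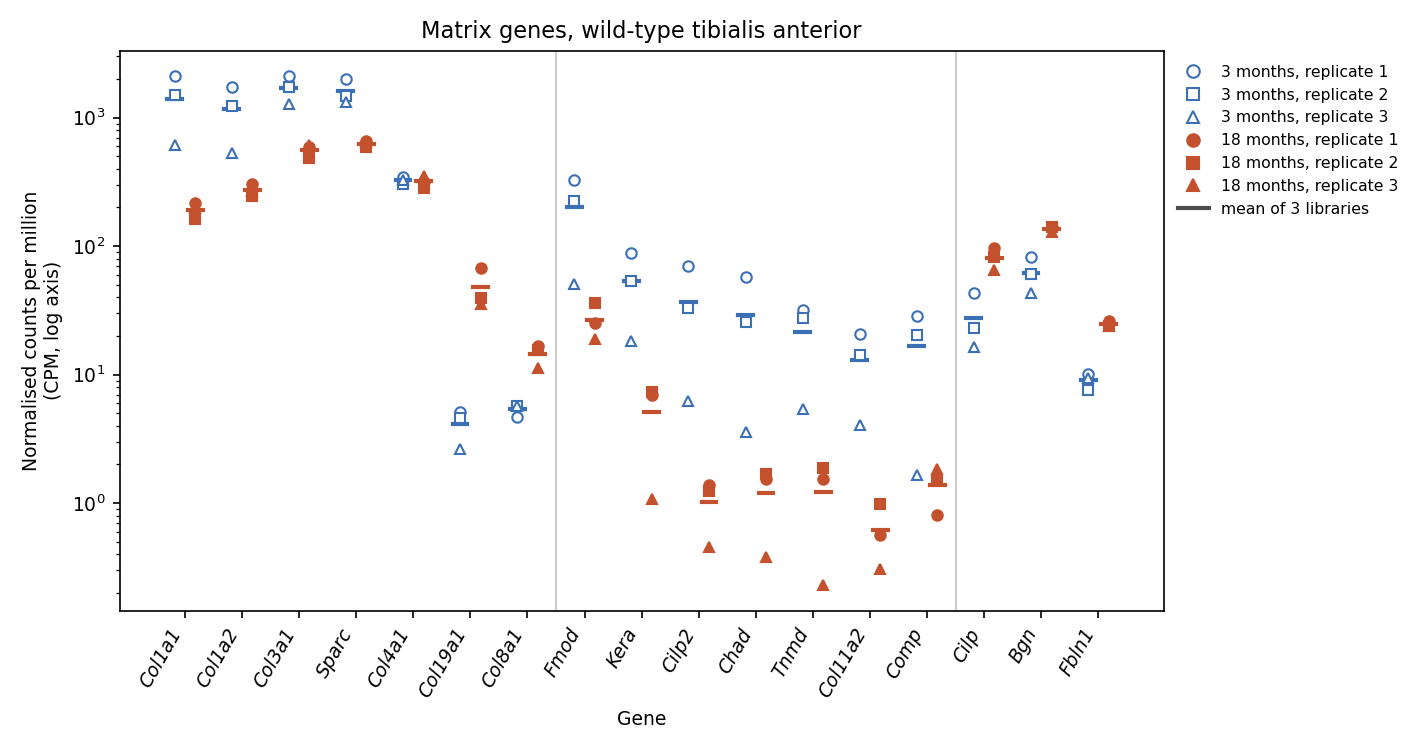
CPM on a log axis for 17 matrix genes, with 1 point per library and a bar at the mean of 3 libraries. Col1a1, Col1a2, Col3a1 and Sparc are lower in all 18-month libraries, Col4a1 overlaps, and from Fmod to Comp replicate 3 of 3 months lies below the other 3-month libraries.

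In the list of elastic fibre and other matrix genes, 9 of 38 were lower and 4 higher. Fbln1, fibulin-1, rose from 10.2, 7.63 and 9.38 CPM to 26.2, 23.8 and 24.1 CPM (1.45 ± 0.17). Bgn, biglycan, rose from 82.4, 61.2 and 42.9 CPM to 142, 140 and 129 CPM (1.14 ± 0.18), and the TGF-beta binder Ltbp1 rose by 0.91 ± 0.14. The list's lower count ran from 4 on log2(TPM + 1) to 14 without replicate 3 of 3 months. Among 26 proteases and inhibitors 5 were higher and 5 lower. Adam19 rose by 1.76 ± 0.17 and the inhibitor Timp1 from 10.2, 6.33 and 7.14 CPM to 15.1, 23.0 and 27.0 CPM (1.46 ± 0.24). The 5 lower calls were 0 with library totals, on log2(TPM + 1) and without replicate 2 of 3 months or replicate 3 of 18 months.

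Among secreted growth regulators 10 of 37 tested were higher and 5 lower, beside 9.31% and 10.1% over all genes. Without replicate 2 of 3 months or replicate 3 of 18 months 3 were lower. Igfbp5, an IGF-binding protein of muscle, rose from 557, 495 and 342 CPM to 1475, 1019 and 1230 CPM (1.42 ± 0.18, adjusted p = 9.3e-05). Fst, follistatin, which binds myostatin and activins, rose from 11.5, 11.2 and 6.23 CPM to 30.5, 24.9 and 19.7 CPM (1.37 ± 0.23). Mstn, myostatin itself, fell from 26.8, 28.3 and 12.7 CPM to 5.49, 9.56 and 5.51 CPM (-1.73 ± 0.29, adjusted p = 0.00088), and is named as the target of Fst, outside the naming rule. Igfbp6 fell by -0.83 ± 0.14 and was not called on log2(TPM + 1) (adjusted p = 0.058). In the Wnt list 3 of 27 were higher and 4 lower, beside the same shares over all genes. The Wnt binder Sfrp2 rose from 2.78, 2.86 and 3.65 CPM to 28.0, 10.7 and 11.3 CPM (2.43 ± 0.35), or by 1.83 without replicate 1 of 18 months.

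Many genes of macrophages and of complement were higher, beside the muscle changes. Of 25 tested macrophage markers 16 were higher and none lower, with a median of 0.79, and their summed level was 481 to 720 CPM at 3 months and 902 to 1328 CPM at 18 months. Gpnmb, a lysosomal glycoprotein of phagocytes, rose from 31.9, 16.9 and 16.9 CPM to 114, 170 and 158 CPM (2.75 ± 0.23, adjusted p = 2.3e-06). Cd163 rose from 30.9, 18.4 and 12.1 CPM to 43.0, 69.1 and 43.9 CPM (1.34 ± 0.27). Spp1, osteopontin, rose from 5.88, 2.25 and 3.82 CPM to 11.3, 22.4 and 56.3 CPM (2.90 ± 0.48), or by 2.07 without replicate 3 of 18 months. Robust fitting did not call Cd163 or Spp1. The count was 10 without replicate 2 of 3 months, 7 without replicate 2 of 18 months and 5 in a fit of all 18 libraries. Marco was at 0 in all 6 libraries.

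Of 28 tested complement and antigen presentation genes 12 were higher and none lower. Nlrc5, the activator of MHC class I genes, rose from 6.52, 6.07 and 5.07 CPM to 20.6, 21.97 and 16.4 CPM (1.74 ± 0.20), and B2m, the class I light chain, rose by 1.02 ± 0.13. C4a (2.17 ± 0.35) is a near copy of C4b, the 2 can share reads, and a robust fit called neither. Ighm, the immunoglobulin mu chain, stood at 2.07, 1.82 and 1.66 CPM and then at 28.7, 9.74 and 9.03 CPM (3.09 ± 0.42), or 2.34 without replicate 1 of 18 months. Of 34 tested interferon genes 2 were higher and 3 lower, beside 9.31% and 10.1% over all genes.

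Haemoglobin fell. Hba-a2 went from 528, 318 and 725 CPM to 85.1, 98.8 and 113 CPM (-2.40 ± 0.23, adjusted p = 7.4e-06), and Hbb-b1 (-2.38 ± 0.21) and Hbb-bs (-2.26 ± 0.20) fell with it. Summed red cell genes were 658 to 1396 CPM at 3 months and 171 to 216 CPM at 18 months. Globin genes are near-identical copies, so the split of reads among them is uncertain. Whether blood left in the tissue differed between the ages was not tested.

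Markers of other cell types gave calls in both directions, beside 19.4% called over all genes. Of 23 endothelial markers 2 were higher and 4 lower, of 19 smooth muscle and pericyte markers 1 and 3, of 18 adipocyte markers 3 and 3, and of 10 neutrophil and mast cell markers 0 and 1. Fibroblast and fibro-adipogenic markers counted 5 higher and 7 lower of 28 (2 higher without replicate 2 of 3 months or replicate 1 or 2 of 18 months), and lymphocyte and plasma cell markers 3 higher of 14. With library totals no endothelial marker was lower and 5 were higher. Schwann cell markers split, 3 higher and 2 lower of 18. Ngfr, the low-affinity neurotrophin receptor that Schwann cells raise after nerve injury, rose from 1.43, 0.780 and 1.08 CPM to 10.2, 6.25 and 7.88 CPM (2.87 ± 0.36).

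Activity-linked genes gave calls in both directions. Of 25 immediate early genes 8 were lower and 4 higher. Arc stood at 7.16, 32.1 and 22.5 CPM and then at 2.02, 4.64 and 2.68 CPM (-2.73 ± 0.44), and Nr4a1 at 161, 332 and 205 CPM and then at 76.3, 72.3 and 67.9 CPM (-1.69 ± 0.21). The orphan receptor Nr4a1 was high in replicate 2 of 3 months, as were Arc and Btg2, and without that library 3 members of the list were lower and 7 higher. Without replicate 1 of 3 months 13 were lower, and a robust fit called 2 lower and did not call Arc (adjusted p = 0.053). Myc rose by 1.29 ± 0.21. Of 19 clock genes 4 were higher and 4 lower (none lower on log2(TPM + 1)), with Ciart up by 1.46 ± 0.27 and Arntl, the clock activator Bmal1, down by -1.42 ± 0.29 (adjusted p = 0.07 on log2(TPM + 1)). The hour of tissue collection is not in the labels used here, and its part was not tested.

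Lipid synthesis (3 higher and 7 lower of 26) and amino acid, one-carbon and polyamine metabolism (2 and 8 of 40) leaned lower under TMM, but with library totals they counted 7 and 4, and 6 and 5. Thrsp, a lipogenic regulator, rose from 20.5, 10.9 and 14.9 CPM to 60.4, 51.4 and 55.7 CPM (1.85 ± 0.19), while the phosphatidate phosphatase Lpin1 fell by -0.99 ± 0.14. The cationic amino acid transporter Slc7a2 rose by 1.59 ± 0.17, and the transaminase Gpt2 fell from 188, 249 and 209 CPM to 101, 105 and 96.6 CPM (-1.09 ± 0.13).

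The naming rule takes called genes whose mean log2 CPM was 2 or more and whose libraries did not overlap between the ages, and its 10 largest rises included Krt18, Sohlh2, Prrt4, Mymx, Ankrd1, Draxin, Sln, Sdr9c7 and Lrtm2. Several are little known in muscle, among them the keratin Krt18, the germ cell transcription factor Sohlh2 and the axon guidance protein Draxin. Krt18 had 0, 0 and 1 counts at 3 months and 150, 83 and 130 counts at 18 months, a ratio of 358 (95% interval 63.8 to 14177, counting error only). Sohlh2 had 1 count in all at 3 months and 293 at 18 months, a ratio of 289 (51.5 to 11450). Prrt4, a proline-rich membrane protein, went from 0.0795, 0.00 and 0.664 CPM to 63.0, 43.8 and 46.4 CPM (7.62 ± 0.40, adjusted p = 1.8e-08). Draxin (6.16 ± 0.59), the dehydrogenase Sdr9c7 (6.04 ± 0.54) and the leucine-rich repeat gene Lrtm2 (5.85 ± 0.66) were also close to 0 at 3 months. Their fitted folds rest on few reads: without replicate 3 of 3 months the changes were 9.95 for Prrt4, 7.68 for Draxin, 7.80 for Sdr9c7 and 9.70 for Lrtm2, 9.90 for Krt18 and 9.603 for Sohlh2.

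Within the same limits, the 10 largest falls were Cilp2, Chad, Col11a2, Tnmd, Kera, Fmod, Col1a1, Arc, Chchd2 and Sec14l5. The cartilage protein Cilp2 (-5.16 ± 0.71) stood at 70.2, 32.9 and 6.23 CPM and then at 1.37, 1.25 and 0.459 CPM, and its change was -4.25 without replicate 1 of 3 months. Col11a2 (-4.40 ± 0.57) and the corneal-type proteoglycan Kera (-3.40 ± 0.54) followed the same order of libraries. Chchd2 is the symbol of 2 entries. One, with 8.43, 25.6 and 46.8 CPM and then 4.04, 3.66 and 4.44 CPM, fell by -2.73 ± 0.44, while the more abundant one changed by -0.48 ± 0.20 (adjusted p = 0.11), so the split of reads between the 2 is uncertain. Sec14l5, a lipid-transfer domain protein, had the smallest SE of the 10, going from 30.9, 35.0 and 35.5 CPM to 5.73, 6.79 and 5.13 CPM (-2.53 ± 0.17, adjusted p = 1.9e-07).

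At 9 months WT muscle lay between the ages for some genes and not for others. These libraries belong to another arm of the study, so age and arm cannot be told apart, and both intervals share the 9-month libraries. Of 13773 genes 333 differed between 9 and 3 months (2.42%) and 1940 between 18 and 9 months (14.1%, with 6.72% higher and 7.37% lower). Called between 9 and 3 months were 92 genes on log2(TPM + 1), 623 in DESeq2 and 136 without replicate 3 of 9 months. Levels in this and the next paragraphs are CPM scaled over 12 libraries.

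The falls of Col1a1, Col3a1 and Sparc lay between 3 and 9 months. Col1a1 stood at 359, 224 and 277 CPM at 9 months. It changed by -2.37 ± 0.31 (adjusted p = 0.00056) from 3 to 9 months and by -0.50 ± 0.30 (adjusted p = 0.30) from 9 to 18. The changes of Col3a1 were -1.50 ± 0.17 (adjusted p = 0.00013) and -0.09 ± 0.16, and those of Sparc -1.50 ± 0.15 and 0.16 ± 0.15. These 3 falls between 3 and 9 months passed in every alternative run. Col5a3 fell in both intervals, by -0.75 ± 0.19 (adjusted p = 0.043) and -0.75 ± 0.19 (adjusted p = 0.014).

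Other changes lay between 9 and 18 months. Runx1 changed by 0.70 ± 0.35 (adjusted p = 0.34) from 3 to 9 months and by 3.57 ± 0.31 from 9 to 18, Myh3 by -0.35 ± 0.41 and 4.14 ± 0.36, and Hdac4 by 0.39 ± 0.22 and 1.68 ± 0.21. Haemoglobin Hba-a2 changed by 0.04 ± 0.21 and -2.44 ± 0.22, and Aldoa by -0.20 ± 0.16 and -0.98 ± 0.16. Fbxo32 had the opposite timing, with 1.04 ± 0.15 (adjusted p = 0.0013) and then 0.18 ± 0.15 (adjusted p = 0.48).

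Denervation genes were uneven among the 9-month libraries. Ncam1 stood at 52.2, 14.6 and 38.3 CPM, Chrna1 at 45.8, 8.56 and 48.1 CPM and Mymx at 17.4, 1.51 and 9.56 CPM. Replicate 2 was the lowest for all of these, within the 3-month range for Chrna1 and Mymx, but the highest for Ankrd1, with 18.2, 183 and 26.7 CPM. Between 9 and 3 months Ncam1 rose by 2.11 ± 0.30 (adjusted p = 0.0014), Myog by 1.37 ± 0.24 (adjusted p = 0.0059), Ankrd1 by 3.32 ± 0.63 (adjusted p = 0.01), Chrna1 by 1.83 ± 0.46 (adjusted p = 0.046) and Cdkn1a by 1.39 ± 0.33 (adjusted p = 0.034). The calls of Chrna1, Cdkn1a and Mymx ended without several single libraries and in DESeq2, and that of Ankrd1 without replicate 2 of 3 months (adjusted p = 0.053). From 9 to 18 months each of these 6 genes rose, by 2.50 ± 0.28 for Ncam1 up to 3.42 ± 0.49 for Mymx.

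The age change was then set against the change in DMD muscle at 9 months, whose controls are other libraries. In a fit of 12 libraries 7450 of 14440 genes differed between DMD and WT (51.6%), and for 4433 (30.7%) the age change differed from the DMD change. The genes given here were chosen after values were seen. Of the 33 tested members of the denervation list 18 were higher and 7 lower in DMD, beside 26.4% and 25.2% of all genes. The age change was above the DMD change in 18 of the 33 and below it in 2, by the test of the difference. Over all genes it was above in 16.4% and below in 14.3%. Such counts over lists were taken under TMM only, and with library totals most called differences over all genes were lower. The DMD change was 1.13 ± 0.29 for Ncam1, 0.84 ± 0.46 for Chrna1, 1.09 ± 0.34 for Myog, 0.01 ± 0.25 for Hdac4 and 0.31 ± 0.21 for Kcnn3. The age change was larger by 3.47 ± 0.43 for Ncam1, 3.995 ± 0.68 for Chrna1, 3.44 ± 0.50 for Myog, 2.06 ± 0.36 for Hdac4 and 2.07 ± 0.30 for Kcnn3 (adjusted p of 0.00047 or less for these 5). Peg3 went the other way, with a difference of -1.50 ± 0.24 (adjusted p = 0.00022). Cdkn1a rose by 2.61 ± 0.35 in DMD and by 2.18 ± 0.50 more with age (adjusted p = 0.0035). For Ankrd1 the difference of 3.04 ± 0.91 (adjusted p = 0.018) fell to 1.28 (adjusted p = 0.095) without replicate 2 of WT at 9 months.

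Myh3 and Myh8 rose more in DMD. Myh3 stood at 164, 290 and 140 CPM in DMD against 39.2, 28.2 and 22.2 CPM in WT at 18 months, and the age change was smaller, at a difference of -3.05 ± 0.55 (adjusted p = 0.00062). Myh8 differed by -1.98 ± 0.46. The rest of their list was mixed. Of the 26 tested embryonic and regenerating fibre genes 18 were higher and 5 lower in DMD. The age change was above the DMD change in 8 of the 26 and below it in 9. Mymx (5.57 ± 0.95, adjusted p = 0.00041) and Myf6 (2.18 ± 0.31, adjusted p = 0.00012) were among those 8. Of the 30 tested members of the atrophy list 5 were higher and 16 lower in DMD, beside 26.4% and 25.2% of all genes. The age change was above the DMD change in 18 of them and below it in 2, beside 16.4% and 14.3%. Fbxo32 fell in DMD by -1.98 ± 0.18, Trim63 by -1.50 ± 0.20 and Sqstm1 by -1.11 ± 0.14, against rises with age, and the differences were 3.20 ± 0.25, 2.37 ± 0.28 and 2.11 ± 0.19. Gadd45a of the denervation list rose in both, by 1.85 ± 0.41 in DMD. Of the 26 tested collagens 23 were higher and 1 lower in DMD, and the age change was below the DMD change in 20 and above it in 1. Col1a1 stood at 2325, 1129 and 1810 CPM in DMD and rose there by 2.61 ± 0.35, a difference of -5.49 ± 0.50 (adjusted p = 3e-06), and Col3a1 differed by -3.84 ± 0.35. Col19a1 and Col8a1 rose in both, by 2.12 ± 0.37 and 2.16 ± 0.37 in DMD.

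Timp1 and Spp1 rose in both, and more in DMD, with differences of -3.37 ± 0.42 and -2.44 ± 0.69. The difference of Spp1 was not called without replicate 1 of 3 months (adjusted p = 0.054). Aqp4, the water channel of the fast fibre membrane that dystrophin complexes anchor, fell from 179, 213 and 198 CPM to 32.4, 79.9 and 65.0 CPM with age (-1.73 ± 0.23) and by -6.33 ± 0.38 in DMD. For 3 genes the changes were not shown to differ: Mymk (1.28 ± 0.78, adjusted p = 0.23), Gpnmb (-0.23 ± 0.45, adjusted p = 0.74) and Plin2 (0.29 ± 0.24, adjusted p = 0.39). Without replicate 1 of 3 months the Mymk difference was 2.99 (adjusted p = 0.025).

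**Figure D5:**
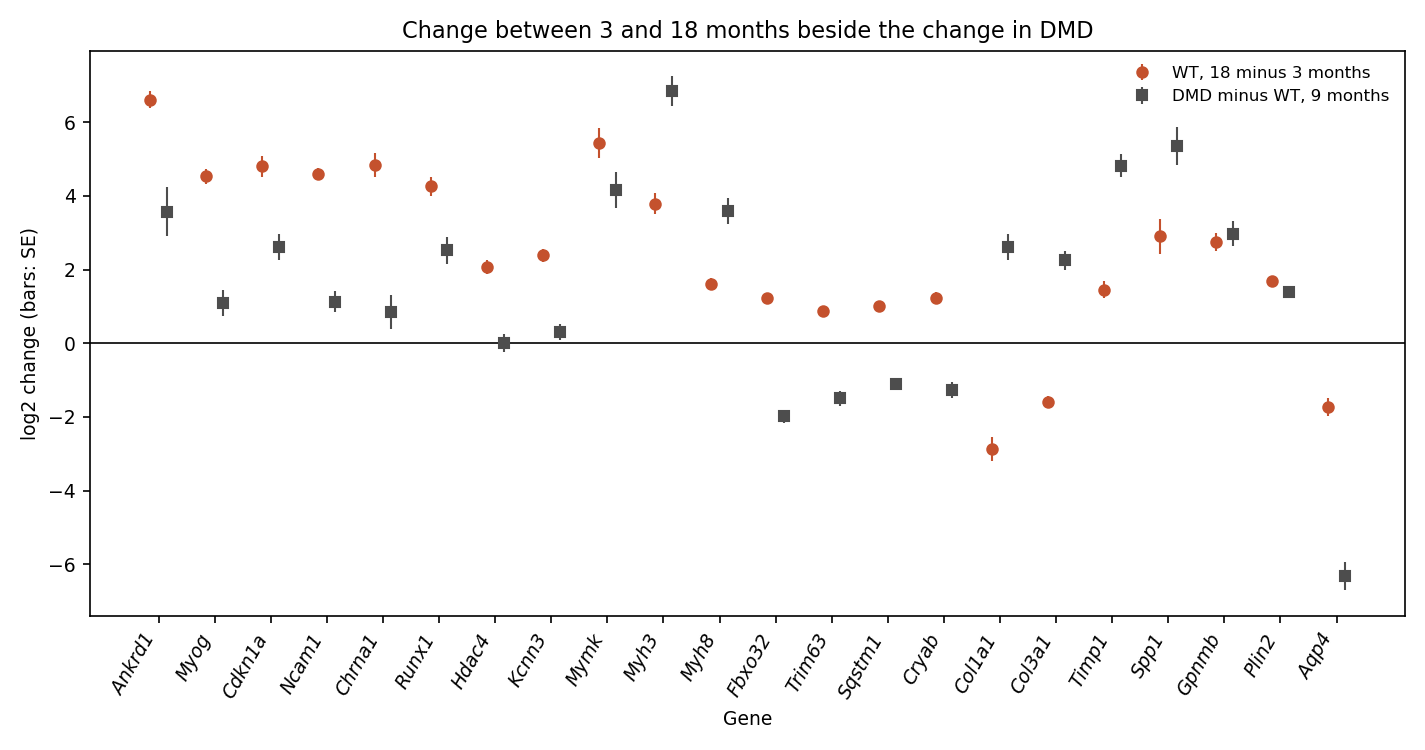
Log2 change with SE between 3 and 18 months in WT (fit of 6 libraries) and between WT and DMD at 9 months (fit of 12 libraries) for 22 genes. Fbxo32, Trim63, Sqstm1 and Cryab lie above 0 with age and below 0 in DMD, and Col1a1 and Col3a1 the reverse.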

How the data were processed

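RNA was sequenced from the tibialis anterior. Per the labels, total RNA from frozen sections was made into libraries with the TruSeq RNA kit Set A. The build mRatBN7.2 and the tools STAR 2.7.10b, RSEM 1.3.3, FastQC and Trimmomatic are named, per the submitters' processing notes. No source used here gives the annotation release or whether counting used strand, so antisense and overlapping genes cannot be separated. The authors deposited expected counts (4.50% not whole, rounded here) and TPM values. Of 30560 entries, 7162 had no symbol. Genes were filtered with filterByExpr, scaled by TMM and tested with edgeR 4.0.16 quasi-likelihood (R 4.3.3), 3 libraries against 3. Replicates of a group differed by more than counting noise. Alternatives used DESeq2 1.42.0, limma 3.58.1, other scalings, filters and fits, and each library left out. The members and lists were chosen with earlier results of these data known. The naming rule took the 4 markers, Dmd, the 10 largest rises and falls (mean log2 CPM of at least 2, no overlap) and up to 6 members of a list with the smallest p, plus further members of the junction, denervation, regeneration and arrest lists. List members with no entry were not analysed here. On simulated data (13287 genes), 76% of 2-fold and 97% of 4-fold changes were recovered. Figures were drawn with matplotlib. Results on a few items are not reported here.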

Additional observations from a re-analysis of the deposited data

Results flagged for a closer look

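For 19 of 22 genes compared, the log2 change from 3 to 18 months in WT muscle differed from the log2 change between DMD and WT muscle at 9 months, by a test of the difference itself in edgeR's quasi-likelihood fit of 12 libraries. These genes were chosen after values were seen, so their count shows nothing by itself, and the same test called 30.7% of all genes. The age change minus the DMD change was 3.04 for Ankrd1, 3.44 for Myog, 2.18 for Cdkn1a, 3.47 for Ncam1, 3.995 for Chrna1, 1.74 for Runx1, 2.06 for Hdac4 and 2.07 for Kcnn3, markers of denervation, stretch or arrest. It was 3.20 for Fbxo32, 2.37 for Trim63, 2.11 for Sqstm1, 2.49 for Cryab and 4.59 for Aqp4, atrophy and chaperone genes and the water channel Aqp4, which fell less with age than in DMD. It was -3.05 for Myh3, -1.98 for Myh8, -5.49 for Col1a1, -3.84 for Col3a1, -3.37 for Timp1 and -2.44 for Spp1, embryonic myosins, collagens and injury-linked genes. The differences of Ankrd1 and Runx1 were not called on log2(TPM + 1), that of Runx1 also not with library totals or without replicate 1 of WT at 9 months, and that of Spp1 not in a fit of all 18 libraries. The WT muscle of 9 months belongs to another arm than the 2 ages, and the part of the arm in these differences was not tested.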

How the results depend on the processing

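Between 18 and 3 months 2622 genes changed. Scaling by library totals called 2609 higher and 652 lower, log2(TPM + 1) 3031 and 429, log2(TPM + 0.1) 2938 and 417, and a fit of all 18 libraries 1742 in all, 868 of them lower. With a 2-fold minimum 802 remained, 502 higher and 300 lower. Leaving out single libraries gave 1696 to 2415 genes, 853 to 1169 higher and 843 to 1255 lower, with the fewest without replicate 1 of 18 months.

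Between 9 and 3 months 333 changed. DESeq2 called 623 (323 higher, 300 lower), no filter 734 (370 and 364), log2(TPM + 1) 92 (50 and 42), log2(TPM + 0.1) 95 (54 and 41) and a fit of all 18 libraries 94 (46 and 48), and library totals called 241 lower. Single libraries left out gave 136 to 318 genes, 75 to 166 higher and 61 to 170 lower.

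Between 18 and 9 months 1940 changed. Library totals called 3711 (3318 higher, 393 lower), a fit of all 18 libraries 1196 (575 and 621), log2(TPM + 1) 2219 higher and 323 lower, and log2(TPM + 0.1) 2037 and 314. Single libraries left out gave 1213 to 2142 genes, 564 to 1020 higher and 649 to 1122 lower.

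For the 4433 genes whose age and DMD changes differed, library totals gave 997 higher and 3724 lower, log2(TPM + 1) 914 and 3687, and log2(TPM + 0.1) 874 and 3198. Single libraries left out gave 3601 to 4607 genes, 1919 to 2560 higher and 1653 to 2047 lower. The cause of these shifts was not tested, apart from the changed scale and the smaller number of libraries.

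Of 178 named genes, leaving out Myh2, Scx, Thbs4, Mkx and the slow fibre genes named for contrast, 161 were called. Of these, 149 kept their call without any single library. No gene of the 178 reversed direction while called. Same-numbered libraries of the 2 ages correlated at 0.03, 0.02 and 0.11 in their deviations from the group means. Such values, from 3 libraries per age, cannot show whether the numbers pair the samples, and the labels do not say so. With a replicate block 2906 genes changed between 18 and 3 months, 301 between 9 and 3, 1774 between 18 and 9, and 4073 in the comparison with DMD. At this depth genes with a few counts at 3 months have imprecise fold changes.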
